A study of Caenorhabditis elegans with 8 samples.

Results

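Embryo elongation in Caenorhabditis elegans turns an ovoid embryo into a worm-shaped one without cell division. The epidermis contracts circumferentially through actomyosin, under the control of the kinase LET-502 and the opposing myosin phosphatase subunit MEL-11. Fibrous organelles, the hemidesmosome-like attachments of this tissue, connect the basement membrane and underlying muscle through intermediate filaments to the outer matrix, and they carry muscle tension across the epidermis as elongation proceeds. The 10 genes described here, chosen by name, encode basal and apical receptors (let-805, mup-4, mua-3), a cytoskeletal linker (vab-10), intermediate filament proteins (ifb-1, ifa-3, mua-6), an ankyrin-repeat attachment protein (vab-19) and the contractility pair (let-502, mel-11). All 10 matched 1 gene identifier each among the 46748 counted, and all 10 were among the 12664 genes with enough reads to be tested.

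RNA from whole late embryos of 2 strains, with 4 biological replicates of each, was poly(A)-selected and sequenced with its strand kept. The 3A strain carried lin-52(bn151), in which LIN-52 has the substitutions L42A, C44A and E46A and a GFP and 3xFLAG tag. The WT strain carried lin-52(bn139), with the same tag on LIN-52 without those substitutions, so both strains are tagged and an untagged strain is not part of the comparison. LIN-52 is a subunit of MuvB, which joins the pocket protein LIN-35 and an E2F-DP dimer in the DREAM repressor complex, and the study asked which genes are misexpressed when LIN-35 no longer associates with MuvB. Synchronized animals of both strains grew in liquid culture for 72 h at 20 °C, and embryos released by bleaching were held at the same temperature for at most 3.5 h before freezing, so the stage at collection had an upper limit rather than a fixed time.

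The libraries held between 17346339 and 29101114 gene-assigned read pairs in 3A and between 14667743 and 68040557 in WT. Ribosomal RNA genes took 1.75% to 40.7% of gene counts in 3A and 0.720% to 3.24% in WT, and the composition factors used for scaling (trimmed mean of M-values, TMM) ranged from 0.630 to 1.44 in 3A and from 0.730 to 1.92 in WT. The targeted gene lin-52 averaged 6.86 CPM (read pairs scaled to a common library size with the TMM factors) in 3A, against 6.78 CPM in WT (edgeR adjusted p = 0.998), and gene counts do not show the substitutions themselves. Summed over 7 late cuticle collagen genes, the level was 4150 to 12500 CPM in 3A and 2230 to 20200 CPM in WT. Most of that sum came from sqt-3, at 3230 to 10400 CPM in 3A and 1680 to 17400 CPM in WT. Summed over 12 early embryo genes the level was 36.3 to 63.3 CPM in 3A and 22.2 to 45.4 CPM in WT, with med-1 at 0 in all 8 libraries. WT replicate 1 stood apart from the other WT libraries for several of the genes below on the TMM scale, and values without it are given where they differ most.

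No gene of the group passed the test between 3A and WT. Of the 10 genes, edgeR's quasi-likelihood test, adjusted over all 12664 genes, called 0 at 0.05, against 0.371% of all genes. Before adjustment 0 of the 10 were under 0.05, against 9.75% of all genes. DESeq2 called 0 of the 10, against 158 of the 21154 genes to which it gave a p-value. The log2 fold change of 3A over WT ran from -0.56 for ifb-1 to 0.21 for let-502. It was negative for 6 of the 10 genes, against 57.2% of all genes tested, and its median was -0.23, against -0.08 for all genes. The median of the 10 genes was 0.18 when WT replicate 1 was left out, against -0.02 for all genes. In 0 of the 10 genes were the 2 sets of 4 libraries free of overlap, where 6.16% of all genes were. When libraries were scaled by size alone, the median of all genes was -0.40, a shift of -0.32, and the 4 genes with small positive values, vab-10, mua-3, let-502 and mel-11, became negative, while the other 6 were negative under both scalings. Whole embryos were sequenced, so fewer epidermal cells and less RNA per epidermal cell cannot be told apart.

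**Figure D1:**
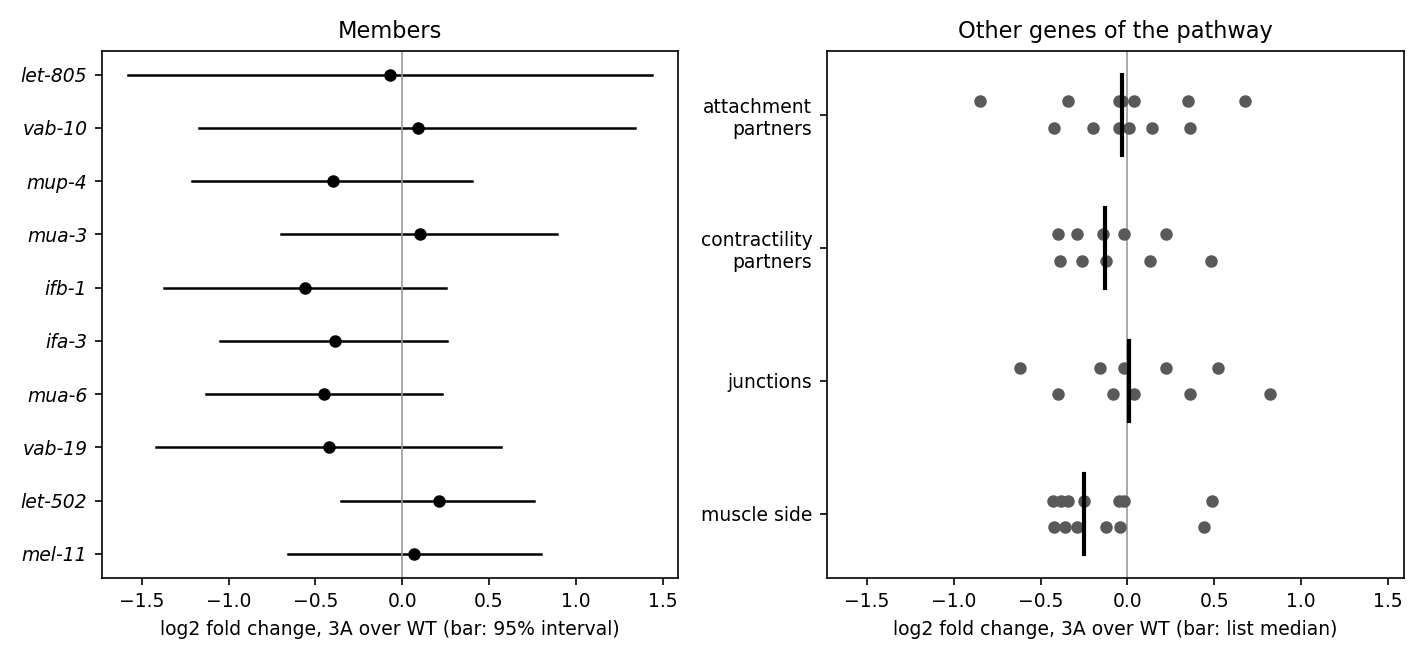
Log2 fold changes of 3A over WT. The left panel gives each of the 10 genes as a point with its 95% interval, and all 10 intervals include 0; the right panel gives each gene of 4 other lists of the pathway as a point, with the list median as a bar, between -0.85 and 0.82.

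The attachment receptors and their linker face opposite sides of the epidermal cell. LET-805 (myotactin) is the transmembrane receptor on the basal side, facing muscle. let-805 (WBGene00002915; WBcel235 chromosome III, 2658083 to 2681112, plus strand) was at 61.3, 16.1, 12.5 and 66.9 CPM in 3A replicates 1 to 4, against 108, 16.0, 17.6 and 22.9 CPM in WT replicates 1 to 4. The high values came from 3A replicates 1 and 4 and WT replicate 1, and the remaining 5 libraries lay between 12.5 and 22.9 CPM, so the groups overlapped. These 3 libraries had the lowest TMM factors of the 8, at 0.687 and 0.630 in 3A replicates 1 and 4 and 0.730 in WT replicate 1, and ribosomal RNA shares of 16.1% and 40.7% in those 3A libraries and 3.24% in that WT library; the part of either in the let-805 level was not tested. Between the groups its log2 fold change was -0.07 (SE 0.69; 95% interval -1.58 to 1.44; edgeR adjusted p = 0.985). Without WT replicate 1 it was 1.07 (SE 0.50; edgeR unadjusted p = 0.0499, adjusted p = 0.225), and the adjusted p-value over all alternative fits lay between 0.225 and 0.997. Without 3A replicates 1 and 4, an alternative chosen after the data were examined because these libraries had the highest ribosomal RNA shares, it was -1.55 (edgeR adjusted p = 0.947).

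VAB-10 is the spectraplakin that ties fibrous organelles to intermediate filaments in one isoform class and binds actin and microtubules in another. vab-10 (WBGene00006876; chromosome I, 11747424 to 11804991, minus strand) has 14 annotated transcripts, and the counts do not separate its isoforms. Its level was 225, 88.1, 64.0 and 220 CPM in 3A replicates 1 to 4, against 327, 69.5, 61.6 and 104 CPM in WT replicates 1 to 4. The same 3 libraries were high as for let-805. This gave a log2 fold change of 0.09 (SE 0.57; 95% interval -1.17 to 1.34; edgeR adjusted p = 0.976). Without WT replicate 1 it was 0.94 (edgeR unadjusted p = 0.0416, adjusted p = 0.208, in a range of 0.208 to 0.995 over the alternatives), and without 3A replicates 1 and 4 it was -0.91 (adjusted p = 0.947).

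MUP-4 and MUA-3 are related transmembrane proteins of the apical side, which attach the epidermis to the outer matrix. mup-4 (WBGene00003497; chromosome III, 7479680 to 7489105, minus strand) was at 12.3, 9.18, 6.31 and 11.3 CPM in 3A replicates 1 to 4, against 20.7, 9.12, 15 and 6.39 CPM in WT replicates 1 to 4. WT had both the 2 highest libraries and the second lowest. The log2 fold change was -0.40 (SE 0.37; 95% interval -1.21 to 0.40; edgeR adjusted p = 0.761). Without WT replicate 1 it was -0.07 (edgeR adjusted p = 0.920, in a range of 0.570 to 0.992 over the alternatives). mua-3 (WBGene00003482; chromosome III, 10160697 to 10183529, plus strand) was at 9.38, 7.22, 2.83 and 9.43 CPM in 3A replicates 1 to 4, against 7.76, 5.52, 8.17 and 5.23 CPM in WT replicates 1 to 4. Its lowest library was 3A replicate 3, with 85 read pairs, and 3A also held its 2 highest. For mua-3 the log2 fold change was 0.10 (SE 0.36; 95% interval -0.70 to 0.89; edgeR adjusted p = 0.951).

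Intermediate filaments of the epidermis are built from IFB-1 together with an IFA partner, and ifb-1 had the highest level of the group per kilobase of exon. ifb-1 (WBGene00002053; chromosome II, 5765618 to 5772084, plus strand) was at 84.1, 56.9, 41.1 and 47.7 CPM in 3A replicates 1 to 4, against 153, 62.5, 68.0 and 56.0 CPM in WT replicates 1 to 4. The means were 57.5 ± 18.9 CPM in 3A and 84.8 ± 45.6 CPM in WT (SD, n = 4 each), and the difference lay within the spread of the libraries. Its log2 fold change of -0.56 (SE 0.37; 95% interval -1.37 to 0.25; edgeR adjusted p = 0.655) was the lowest of the 10. Without WT replicate 1 it was -0.10 (edgeR adjusted p = 0.857, in a range of 0.373 to 0.980 over the alternatives).

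The IFA partners ifa-3 and mua-6 lie next to each other on the X chromosome and on the same strand. ifa-3 (WBGene00002051; 16267197 to 16270069, minus strand) averaged 10.2 ± 1.68 CPM in 3A and 13.4 ± 5.08 CPM in WT (SD, n = 4 each), with single libraries from 8.08 to 11.8 CPM in 3A and from 8.97 to 20.0 CPM in WT. Its log2 fold change was -0.39 (SE 0.30; 95% interval -1.05 to 0.26; edgeR adjusted p = 0.704). mua-6 (WBGene00003485; 16262289 to 16265686, minus strand), which encodes IFA-2, averaged 9.91 ± 2.94 CPM in 3A and 13.5 ± 5.02 CPM in WT, with single libraries from 7.69 to 14.1 CPM in 3A and from 10.1 to 20.9 CPM in WT. Its log2 fold change was -0.45 (SE 0.31; 95% interval -1.13 to 0.23; edgeR adjusted p = 0.674). The 2 values were -0.13 for ifa-3 and -0.14 for mua-6 without WT replicate 1. Reads that align to more than 1 place are absent from the gene counts, so both genes lose reads wherever their sequences are alike, and how many was not tested. A further IFA gene, ifa-1, averaged 33.5 CPM in 3A and 42.4 CPM in WT, a log2 difference of -0.34 (SE 0.36; edgeR adjusted p = 0.800), which was 0.09 without WT replicate 1.

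VAB-19, a Kank-family ankyrin-repeat protein, keeps attachments in place and organizes actin as the embryo elongates. vab-19 (WBGene00006882; chromosome II, 2443279 to 2450947, plus strand) was at 20.7, 14, 10.3 and 19.6 CPM in 3A replicates 1 to 4, against 47.8, 12.2, 14.3 and 12 CPM in WT replicates 1 to 4. All 4 libraries of 3A fell below WT replicate 1, and 2 of them lay above the other 3 WT libraries. The log2 fold change was -0.42 (SE 0.46; 95% interval -1.42 to 0.57; edgeR adjusted p = 0.803), and without WT replicate 1 it changed sign to 0.34 (edgeR adjusted p = 0.478, in a range of 0.478 to 0.994 over the alternatives).

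**Figure D2:**
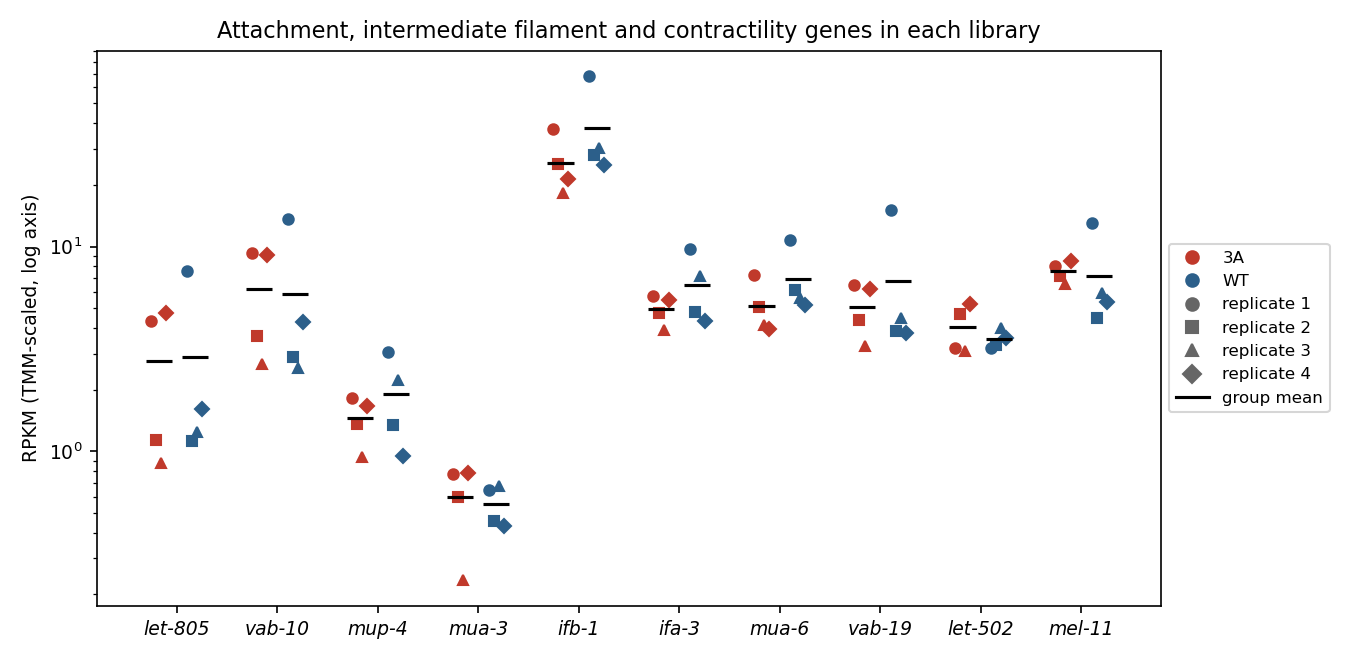
Level of each of the 10 genes in each library, in RPKM (TMM-scaled CPM per kilobase of exon) on a log axis, with 3A in red, WT in blue and a symbol for each replicate number. Black bars are group means; WT replicate 1 is the highest library for 8 of the 10 genes, and ifb-1 lies above and mua-3 below the rest in all 8 libraries.

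The kinase LET-502 and the myosin phosphatase subunit MEL-11 act on myosin light chain in opposite directions. let-502 (WBGene00002694; chromosome I, 4738171 to 4744321, minus strand) was at 13.9, 20.5, 13.5 and 23 CPM in 3A replicates 1 to 4, against 13.9, 14.5, 17.5 and 15.6 CPM in WT replicates 1 to 4. On the TMM scale it was the steadiest of the 10 genes, with a within-group SD of 0.29 in log2 CPM, smaller than in all but 13.3% of the genes tested. Scaled by library size alone, let-502 ran from 9.58 to 33.6 CPM and mel-11 from 17 to 43.8 CPM, so its steadiness depended on the scaling. For let-502 the log2 fold change was 0.21 (SE 0.26; 95% interval -0.35 to 0.76; edgeR adjusted p = 0.829). mel-11 (WBGene00003196; chromosome II, 9358530 to 9369099, plus strand) was at 30.9, 27.5, 25.2 and 32.6 CPM in 3A replicates 1 to 4, against 49.8, 17.2, 22.8 and 20.7 CPM in WT replicates 1 to 4. WT replicate 1 was above all 3A libraries and the other 3 WT libraries were below all of them. The log2 fold change was 0.07 (SE 0.33; 95% interval -0.66 to 0.80; edgeR adjusted p = 0.962). Without WT replicate 1 it was 0.54 (SE 0.22; edgeR unadjusted p = 0.0280, adjusted p = 0.175, in a range of 0.175 to 1.00 over the alternatives). let-805, vab-10 and mel-11 were the 3 genes of the 10 with an unadjusted p-value under 0.05 in that fit, all higher in 3A, where 12.4% of all genes tested were as well.

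A ratio between 2 genes of the same library does not depend on how libraries are scaled. On the log2 scale per exon length, let-502 over mel-11 was -1.34, -0.61, -1.09 and -0.69 in 3A replicates 1 to 4, against -2.03, -0.44, -0.57 and -0.59 in WT replicates 1 to 4. The means were -0.93 ± 0.34 in 3A and -0.91 ± 0.75 in WT (SD, n = 4 each), so mel-11 had more transcript per length than let-502 in all 8 libraries and the groups differed by less than their spread. The ratio was lowest in WT replicate 1 and next lowest in 3A replicate 1. ifb-1 over mua-6 was the most even ratio of the 5 computed, at 2.32 ± 0.12 in 3A and 2.38 ± 0.21 in WT, and ifb-1 over ifa-3 was 2.33 ± 0.31 in 3A and 2.49 ± 0.30 in WT. vab-10 over let-805 was 1.34 ± 0.36 in 3A and 1.17 ± 0.27 in WT. mua-3 over mup-4 was -1.37 ± 0.42 in 3A and -1.66 ± 0.47 in WT. These ratios were given no test.

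**Figure D3:**
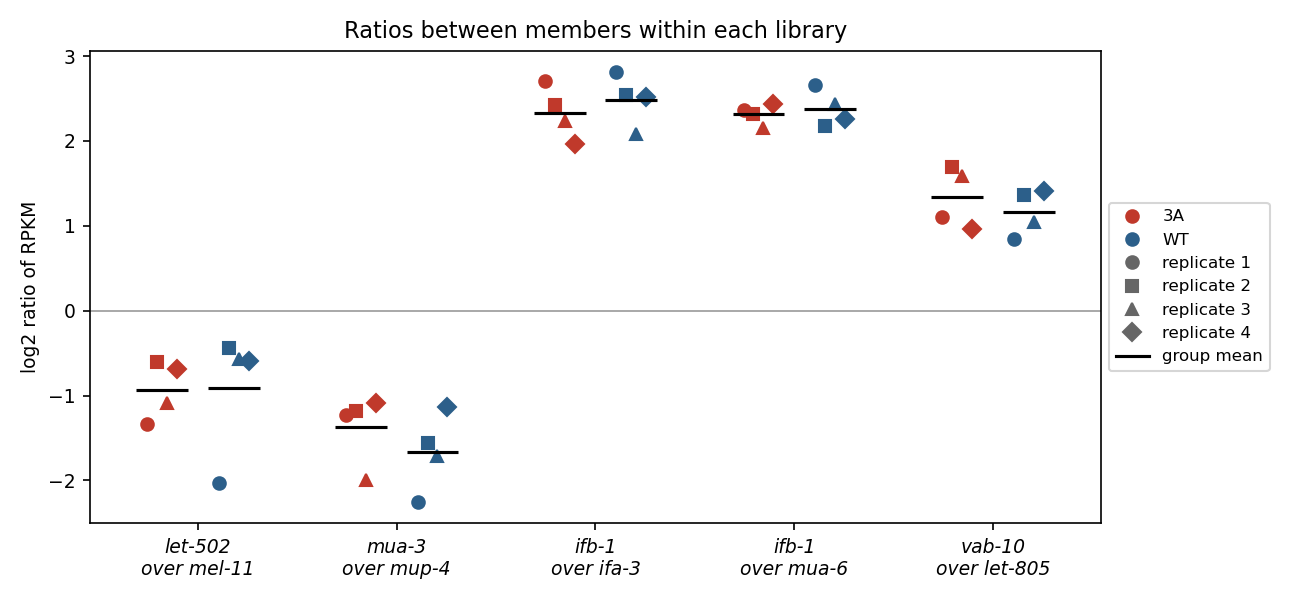
Log2 ratio of RPKM between 5 pairs of genes within each library, with 3A in red left of WT in blue, a symbol for each replicate number and black bars for group means. The 2 groups overlap for every ratio, and let-502 over mel-11 is lowest, at -2.03, in WT replicate 1.

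Per kilobase of exon the group spanned a wide range of levels. ifb-1 was the highest in all 8 libraries, at 25.6 ± 8.43 RPKM in 3A and 37.8 ± 20.3 RPKM in WT (SD, n = 4 each), and mua-3 the lowest in all 8, at 0.599 ± 0.257 RPKM in 3A and 0.554 ± 0.125 RPKM in WT. Between them mel-11 averaged 7.39 RPKM over the 8 libraries, mua-6 6.02, vab-10 6.01, vab-19 5.94, ifa-3 5.74, let-502 3.79, let-805 2.82 and mup-4 1.67. The ranges of ifb-1 and mel-11 did not overlap, nor did those of mup-4 and mua-3. All other neighbours in this order overlapped in range. Within single libraries ifa-3 exceeded let-502 in 8 of 8, mel-11 exceeded mua-6 in 7 and let-502 exceeded let-805 in 6. The order was less even for mua-6 over vab-10, in 5 libraries, and let-805 over mup-4, in 4. It held in 3 of 8 libraries only for vab-10 over vab-19 and for vab-19 over ifa-3. Exon length was taken over all annotated transcripts, which lowers the value of genes with many isoforms such as vab-10.

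Of the 10 genes, let-805 and vab-10 varied most between libraries of the same strain on the TMM scale. The pooled within-group SD of log2 CPM was 1.27 for let-805, larger than in 97.7% of the genes tested, and 1.01 for vab-10, larger than in 93.0%. The highest library of let-805 was 8.61 times its lowest, that of vab-10 5.31 times, and that of let-502 1.71 times. Scaled by library size alone, vab-10 ran from 67.6 to 239 CPM, let-502 from 9.58 to 33.6 CPM and mup-4 from 5.25 to 28.9 CPM. The contrast between vab-10 and let-502 thus depended on the TMM factors. On the TMM scale vab-19 was next with an SD of 0.75, while ifa-3, mua-6 and mel-11, with 0.42, 0.44 and 0.49, lay below the median SD of 0.53 over all genes. By exon length, vab-10 (24099 bases), let-805 (14200) and mua-3 (12053) were the longest, with SDs of 1.01, 1.27 and 0.62. The shortest, mua-6 (1943) and ifa-3 (2061), had SDs of 0.44 and 0.42, while vab-19 (3171) had 0.75. The part of exon length in these values was not tested.

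WT replicate 1 was the highest library for 8 of the 10 genes and 3A replicate 3 the lowest for 7. The summed levels of markers of 5 tissues were also highest in WT replicate 1 on the TMM scale, as were 18 of their 32 single genes. The summed level of 7 epidermal identity markers was 1370, 562, 554 and 674 CPM in 3A replicates 1 to 4, against 1780, 526, 339 and 885 CPM in WT replicates 1 to 4, most of it from dpy-7, which is also one of the 7 collagen genes. lin-26, which specifies epithelial fate in the epidermis, was at 10.5, 14.1, 8.31 and 12.3 CPM in 3A, against 18.2, 14, 18.5 and 9.05 CPM in WT, with WT replicates 1 and 3 the highest. That of 7 body-wall muscle markers was 1990, 1200, 808 and 1180 CPM in 3A, against 3770, 1210, 905 and 1330 CPM in WT. Intestine markers summed to 103 to 207 CPM in 3A and 136 to 467 CPM in WT, neuron markers to 98.1 to 164 CPM in 3A and 113 to 273 CPM in WT, and pharynx markers to 66.4 to 118 CPM in 3A and 84.5 to 197 CPM in WT. Of the same 5 lists 0 genes were called between 3A and WT by edgeR, and 4 of 32 had a p-value under 0.05 before adjustment (12.5%, against 9.75% of all genes). Log2 fold changes were negative for 6 of 7 epidermal, 6 of 7 muscle and 4 of 5 pharynx genes. They were also negative for 6 of 7 neuron and 4 of 6 intestine genes, against 57.2% of all genes. The list medians were -0.15, -0.30, -0.51, -0.48 and -0.41 in that order, against -0.08 for all genes. Of the 10 early embryo genes tested, 10 had a positive log2 fold change, with a median of 0.79, 5 were under 0.05 before adjustment and 0 were called. Germline markers summed to 85.6 to 148 CPM in 3A and 25.7 to 80.4 CPM in WT. Of these 6 genes, 6 had a positive log2 fold change, 3 were under 0.05 before adjustment and 1 was called, syp-1. Over all 12664 genes tested, 5416 were positive, 9.75% were under 0.05 before adjustment and 0.371% were called. The part of these markers, of ribosomal RNA and of stage in the levels of the 10 genes was not tested.

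**Figure D4:**
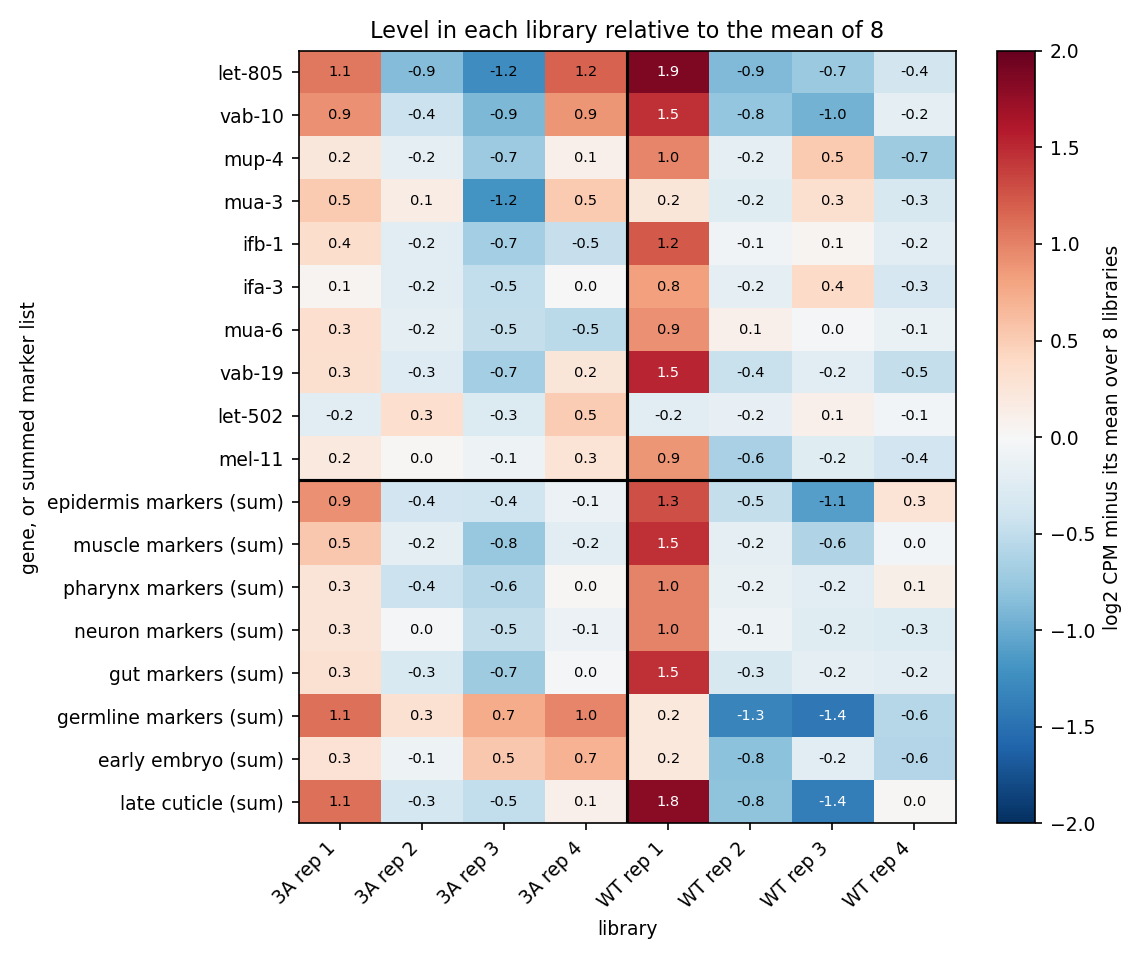
Log2 CPM of each of the 10 genes, and log2 of the summed CPM of 8 marker lists, in each library minus the mean over the 8 libraries, with 3A left of WT. Red is above and blue below that mean; let-805 runs from -1.24 in 3A replicate 3 to 1.87 in WT replicate 1, while let-502 stays between -0.27 and 0.50.

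This order of the libraries depended on the TMM factors. With library size alone WT replicate 1 was the highest library for 3 of the 10 genes (let-805, vab-10 and vab-19) and WT replicate 3, which has the highest TMM factor, for the other 7. On that scale let-805 was at 42.1, 23.2, 13.2 and 42.1 CPM in 3A replicates 1 to 4, against 78.5, 21.0, 33.8 and 18.8 CPM in WT replicates 1 to 4, so WT replicate 1 and 3A replicates 1 and 4 were again its 3 highest libraries. ifb-1 ran from 30 to 81.8 CPM in 3A, against 46 to 131 CPM in WT, with WT replicate 3 highest and WT replicate 1 second. let-502 was likewise highest in WT replicate 3, at 33.6 CPM, and lowest in 3A replicate 1, at 9.58 CPM.

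Some of the genes followed each other closely across libraries. Of 45 pairs, mup-4 and ifa-3 had a Pearson r of 0.97 over the 8 libraries (exact permutation test, two-sided, p = 4.96e-05, adjusted over the pairs 0.00223) and a Spearman coefficient of 0.98 (exact permutation p = 0.000397, adjusted 0.0179), and r was 0.95 without the 2 libraries farthest from the median of mup-4. ifb-1 and mua-6 had an r of 0.98 (exact permutation p = 0.000322, adjusted 0.00725) and a Spearman coefficient of 0.93 (exact permutation p = 0.00223, adjusted 0.0335), with r = 0.94 without the 2 libraries farthest from the median of ifb-1. These pairs were chosen as the closest, and both genes of a pair share the scaling factor of each library. Of the 45 pairs, 33 had r over 0.5, and no share over all pairs of tested genes was computed. The p-values therefore do not tell a link between the genes of a pair from a pattern common to many genes. For let-805 and vab-10 the libraries fell into 3 high and 5 low ones, so no pooled correlation is given. Among all other genes tested, those nearest to the mean standardised log2 CPM of the 10 genes were egl-8 (r = 0.983), gly-4 (r = 0.981), ast-1 (r = 0.980), Y64G10A.7 (r = 0.980) and Y48G1BR.1 (r = 0.978) over the 8 libraries, as a description.

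The other genes of elongation were followed in 4 lists with 46 matched genes, all of them tested. As in the group itself, 0 of the 46 were called by edgeR's quasi-likelihood test or by DESeq2. Over all genes edgeR called 0.371%, and DESeq2 called 158 of 21154. Before adjustment 0 of the 46 were under 0.05 by edgeR, against 9.75% of all genes. When WT replicate 1 was left out, 10 of the 46 were under 0.05 before adjustment, against 22.2% of all genes, and 0 were called. With all libraries their median log2 fold change was -0.05, and 16 of the 46 values were positive. Among 13 attachment, filament and spectrin genes the median was -0.03. The smallest p-values there belonged to sma-1, a beta-heavy spectrin gene, at 0.68 (SE 0.35; edgeR adjusted p = 0.575), and pat-12, a fibrous organelle gene, at -0.85 (SE 0.58; adjusted p = 0.669). For sma-1 the value was 0.79 without WT replicate 1 (edgeR adjusted p = 0.195). pat-12 was at 43.5, 20.2, 16.0 and 30.6 CPM in 3A replicates 1 to 4, against 128, 24.6, 25.6 and 19.3 CPM in WT replicates 1 to 4, and without WT replicate 1 its log2 fold change turned to 0.26 (SE 0.31; edgeR adjusted p = 0.656).

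Among 10 contractility and actomyosin genes the median was -0.13. The non-muscle myosin gene nmy-2 differed by 0.48 on the log2 scale (SE 0.30; edgeR adjusted p = 0.636) and rga-2, a negative regulator upstream of LET-502, by -0.39 (SE 0.36; adjusted p = 0.763); without WT replicate 1 the values were 0.73 for nmy-2 (edgeR adjusted p = 0.130) and 0.14 for rga-2 (adjusted p = 0.742). Among 10 junction genes the median was 0.01. For the claudin-like gene vab-9 the log2 value was -0.62 (SE 0.32; edgeR adjusted p = 0.566), and ajm-1, of the apical junction, had 0.82 (SE 0.44; adjusted p = 0.588). ajm-1 was at 719, 448, 298 and 607 CPM in 3A replicates 1 to 4, against 363, 210, 128 and 473 CPM in WT replicates 1 to 4. Its 0.82 was the largest positive value of the 46. Without WT replicate 1 the values were -0.69 for vab-9 (edgeR adjusted p = 0.205) and 0.95 for ajm-1 (adjusted p = 0.237). Among 13 genes of the muscle side and basement membrane the median was -0.25 and 2 of 13 values were positive. The laminin alpha gene epi-1 differed by 0.49 (SE 0.26; edgeR adjusted p = 0.587), or 0.65 without WT replicate 1 (edgeR adjusted p = 0.141). The PINCH gene of muscle attachments, unc-97, had -0.42 (SE 0.28; adjusted p = 0.667), or -0.16 without WT replicate 1 (edgeR adjusted p = 0.713).

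The lowest count of any of the 10 genes in a library was 63 read pairs, for mua-3 in WT replicate 4, against a detection floor of 3. In the TMM fit of all libraries, the unadjusted 95% interval lay inside a 2-fold change in either direction for 3 genes, namely mua-3 (0.617-fold to 1.86-fold), let-502 (0.784-fold to 1.70-fold) and mel-11 (0.634-fold to 1.74-fold). It reached a 2-fold decrease for the other 7, and for let-805 (0.334-fold to 2.72-fold) and vab-10 (0.445-fold to 2.54-fold) it also reached a 2-fold increase. These bounds belong to that fit only. The SE with library size alone was 0.55 for mua-3, 0.5 for let-502 and 0.44 for mel-11, against 0.36, 0.26 and 0.33.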

How the data were processed

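Each library came as a table of its own that the authors deposited, holding raw counts, that is whole-number read pairs per gene for 46748 WormBase identifiers and 5 closing counters of the HTSeq kind; the counters (3.32% to 15.5% of read pairs, mostly those aligned to several places) were left out. Per the submitters' processing notes, fastp, STAR, HTSeq and DESeq2 and build WBcel235 were used, with versions not given in the sources used here. Libraries were made from 1 µg of RNA and read as 150-bp pairs, per the labels' protocols. Symbols came from a supplied identifier table, and positions and exon lengths from Ensembl release 115 for WBcel235.

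Counts were fitted in R 4.3.3 with edgeR 4.0.16 (filterByExpr with a minimum count of 10, TMM, quasi-likelihood F-test, Benjamini-Hochberg over all genes tested, call at 0.05). The SE is the log2 fold change divided by the square root of F. DESeq2 1.42.0, RLE factors, library size alone, 2 other filters, removal of ribosomal RNA genes, a replicate block and each library left out were alternatives. The fit was tested on simulated data. No pair of replicates agreed within sampling noise (chi-square per degree of freedom at least 43.9).

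The genes and lists were chosen with earlier results of these data known, so no list was tested as a whole. Named genes are the 10, ifa-1, lin-52, the 2 genes of each pathway list with the smallest p-value and the 5 genes nearest in pattern. med-1, sqt-3, dpy-7, lin-26 and syp-1, from the marker lists, were named after their values were seen. rga-7 and bus-8, listed under these names, matched no identifier. Protein and promoter sequences were not used here.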

Additional observations from a re-analysis of the deposited data

Results flagged for a closer look

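Of 32 sets of 4 values examined (the 10 genes, lin-52 and 5 ratios, in each group), 8 had a library whose gap to the nearest other exceeded Dixon's critical share of the group's range, 0.829. For normally distributed values chance gives about 1 in 20. CPM were taken without a log transform and the ratios on the log2 scale, so that rate need not hold for the CPM sets. In 6 of the 8 sets WT replicate 1 was the high library. The shares were 0.924 for let-805, 0.841 for vab-10, 0.875 for ifb-1, 0.833 for mua-6, 0.936 for vab-19 and 0.830 for mel-11, all for CPM in WT. With library size alone 0 of the 20 sets of the 10 genes exceeded it. The log2 ratio of let-502 over mel-11, which no scaling touches, had a share of 0.906 in WT, with WT replicate 1 low at -2.03. The log2 ratio of mua-3 over mup-4 had a share of 0.846 in 3A, with 3A replicate 3 low at -2.0. These libraries are not independent from gene to gene, and no cause was tested.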

How the results depend on the processing

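Under 16 alternatives, 15 of them planned, 0 of the 10 genes and 0 of the 46 pathway genes were called. Of 160 fold changes of single genes, 138 kept their sign and 22 changed it, none with an adjusted p-value under 0.05; the smallest adjusted p-value was 0.175. The median of the 10 genes ran from -0.42 to 0.18 when 1 library was left out, positive only without WT replicate 1, and was -0.49 with library size alone and -0.68 without 3A replicates 1 and 4 together. Leaving out 1 library gave log2 fold changes from -0.46 to 1.07 for let-805, from -0.18 to 0.94 for vab-10, from -0.05 to 0.36 for mua-3, from -0.62 to 0.34 for vab-19 and from -0.10 to 0.54 for mel-11. With library size alone the sign changed for vab-10 (-0.13), mua-3 (-0.36), let-502 (-0.16) and mel-11 (-0.15), and without 3A replicates 1 and 4 for vab-10 (-0.91), mua-3 (-0.42) and mel-11 (-0.08).

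The count over all genes, 47 in the fit of all libraries, was 10 with library size alone, 71 without a low-count filter, 158 with DESeq2, 17 without 3A replicates 1 and 4, and from 18 (without 3A replicate 3 or WT replicate 2) to 196 (without WT replicate 1) with 1 library left out; it was 30 without 3A replicate 1 and 25 without WT replicate 3. With the replicate number as a block it was 175, 0 of the 10 genes were called, and let-805 changed sign to 0.04. Same-numbered libraries deviated together with correlations of 0.566, 0.60, 0.176 and 0.00849 for numbers 1 to 4, not every library was closest to its own number, and no label says what a number stands for, so the fit without the block was kept. The causes were not tested.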
